A study of Mus musculus with 8 samples.

Results

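The 32 genes described here are type I interferon-stimulated genes, the antiviral and regulatory genes that cells switch on after exposure to interferons alpha and beta. They were taken by name from a fixed list: every probe of the array whose gene symbol, or current symbol by Entrez ID, was on that list. This gave 59 probes for all 32 genes, of which 48 probes for 31 genes were bright enough to test, out of 30955 tested probes and 16495 tested genes in all. The remaining gene, the oligoadenylate synthetase Oas3, did not rise well above background on any of the 8 arrays and has only a bound. Probes were taken by name and not by any measured value, but the list was drawn up with earlier results of these data known. Among the 31 measured genes, 30 were well above background on all 8 arrays and Oas1g on 7, so none entered the comparison through one group alone.

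Liver RNA came from NFS/sld females. Early loss of the thymus in this strain serves as a model of primary Sjögren's syndrome. In the Tx group (n = 4) the thymus had been removed 3 days after birth, and the liver was taken 8 weeks after that operation. In the nonTx group (n = 4) female mice of the same strain kept their thymus; their age and whether they had a sham operation are not given in the labels, and both groups share the sld background. The replicates are called independent without being tied to animals, so the spread described below is a spread between samples, which may in part be technical.

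One array with a single dye was used per sample, and a value is the brightness of a probe. Relative signal below means that brightness divided by the 75th percentile of its array, so a relative signal of 1 lies at the upper quartile of the probes. The 75th percentile was 224.8 to 330 on the Tx arrays and 273.6 to 301.8 on the nonTx arrays, and 51.1% to 55.45% of probes were well above background on Tx arrays against 54.24% to 57.12% on nonTx arrays. All 8 arrays lay on 1 slide read in 1 scan, with the Tx arrays in one row and the nonTx arrays in the other, so row and group cannot be told apart. The hepatocyte genes Alb, Apoa1, Ttr, Serpina1a, Cps1, Fgb and Trf were well above background on every array, as the tissue label implies. In whole liver, fewer cells of a type and less RNA per cell cannot be told apart.

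Type I interferons bind the receptor pair IFNAR1 and IFNAR2, whose kinases JAK1 and TYK2 phosphorylate STAT2. A complex that contains STAT2 and IRF9 then binds the interferon-stimulated response element, a short DNA motif of repeated GAAA blocks, near the start of its target genes. The products sense viral RNA or DNA, block translation and replication of viruses, and switch the pathway off again. In liver the genes are expressed at a basal level by hepatocytes, Kupffer cells, endothelial cells and lymphocytes.

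The response element can be looked for in the DNA next to these genes. The 250 bases before the gene start were available from RefSeq (GRCm38.p6) for 21 of the 32 genes and were searched on both strands for GAAA, any 2 bases and GAAA again, which reads TTTC, any 2 bases and TTTC on the other strand. Overlapping matches were counted. Of the 21 genes, 10 held at least 1 match (47.6%), against 936 of 27025 genes in the RefSeq table (3.46%). The 10 were Isg15, Ifit1, Ifit3, Oas1a, Oas1g, Oas3, Rsad2, Stat2, Bst2 and Trim30a. The genes searched without a match were Ifit2, Oasl1, Oasl2, Irf7, Irf9, Ifi44, Ifih1, Ddx58, Xaf1, Cmpk2 and Ifi35, and those not in the table were Mx1, Mx2, Oas1b, Oas2, Usp18, Zbp1, Rtp4, Dhx58, Ifi27l2a, Parp14 and Parp9. Some genes have more than 1 window, and a match in any was counted. The windows of 5 genes are shown: Isg15, Ifit1, Bst2 and Oas1a, which were highest on the same Tx array as described below, and Rsad2, which was highest on another. Matches are in capitals, the sequences run 5′ to 3′ along the gene's strand, and the last base borders the gene start. A match describes the letters and is no evidence of binding in these livers.
Isg15, chr4:156200819-156201068, minus strand: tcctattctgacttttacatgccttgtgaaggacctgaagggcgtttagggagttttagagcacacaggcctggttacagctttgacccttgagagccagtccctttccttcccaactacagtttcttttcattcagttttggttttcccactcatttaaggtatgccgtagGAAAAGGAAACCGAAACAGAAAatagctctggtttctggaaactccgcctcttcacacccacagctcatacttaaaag
Ifit1, chr19:34640639-34640888, plus strand: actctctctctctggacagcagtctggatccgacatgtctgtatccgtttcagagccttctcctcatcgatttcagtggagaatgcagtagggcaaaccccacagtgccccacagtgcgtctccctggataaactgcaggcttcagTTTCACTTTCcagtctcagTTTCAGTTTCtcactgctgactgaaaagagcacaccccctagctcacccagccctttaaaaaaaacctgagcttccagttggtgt
Rsad2, chr12:26456453-26456702, minus strand: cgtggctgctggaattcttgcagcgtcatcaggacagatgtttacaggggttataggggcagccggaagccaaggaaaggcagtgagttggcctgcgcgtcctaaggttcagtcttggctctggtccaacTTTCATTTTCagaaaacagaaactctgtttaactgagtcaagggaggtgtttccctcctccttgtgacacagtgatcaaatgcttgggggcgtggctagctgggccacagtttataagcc
Bst2, chr8:71537473-71537722, minus strand: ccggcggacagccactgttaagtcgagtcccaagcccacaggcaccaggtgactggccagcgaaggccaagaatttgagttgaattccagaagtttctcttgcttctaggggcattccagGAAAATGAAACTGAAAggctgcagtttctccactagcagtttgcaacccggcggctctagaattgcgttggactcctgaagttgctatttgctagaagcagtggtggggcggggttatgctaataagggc
Oas1a, chr5:120907526-120907775, minus strand: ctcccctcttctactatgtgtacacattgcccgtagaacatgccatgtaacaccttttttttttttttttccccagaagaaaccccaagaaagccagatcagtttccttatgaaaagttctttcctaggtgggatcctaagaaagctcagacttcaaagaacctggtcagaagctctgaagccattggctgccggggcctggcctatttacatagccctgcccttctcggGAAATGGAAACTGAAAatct
In Isg15 the 3 matches overlap and start 78 to 66 bases before the gene start, in Ifit1 the 2 matches start 104 and 85 bases before it, and in Oas1a the 2 overlapping matches start 20 and 14 bases before it.

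No shift of the interferon-stimulated genes between the groups was detected. Of the 31 measured genes, 15 were lower and 16 higher in Tx livers, with a median log2 difference (Tx minus nonTx) of 0.01. Among all 16495 tested genes the share below 0 was 43.7% and the median 0.03. These directions depend on the scaling. After it, 10 of 10 spike-in RNAs, added in equal amounts for calibration, stood higher in Tx, by 0.06 to 0.37. No difference given here was corrected for that offset. With quantile normalization 18 of the 31 genes were lower in Tx, and with scaling to the median 9. By limma with Benjamini-Hochberg adjustment over all tested probes, 0 of the 31 genes passed a threshold of 0.05, against 0% of all genes, and the smallest adjusted p was 0.247. At an unadjusted p under 0.05, 2 of the 31 passed, against 13.9% of all tested genes. The median standard error of a difference was 0.22 on the log2 scale for these genes, against 0.13 for all tested genes, so the larger spread also limits what could be detected. The direction of the middle depended on single arrays: the median was -0.13 with 21 genes lower without Tx replicate 2, -0.12 with 23 lower without nonTx replicate 1, and 0.13 with 9 lower without nonTx replicate 4.

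**Figure D1:**
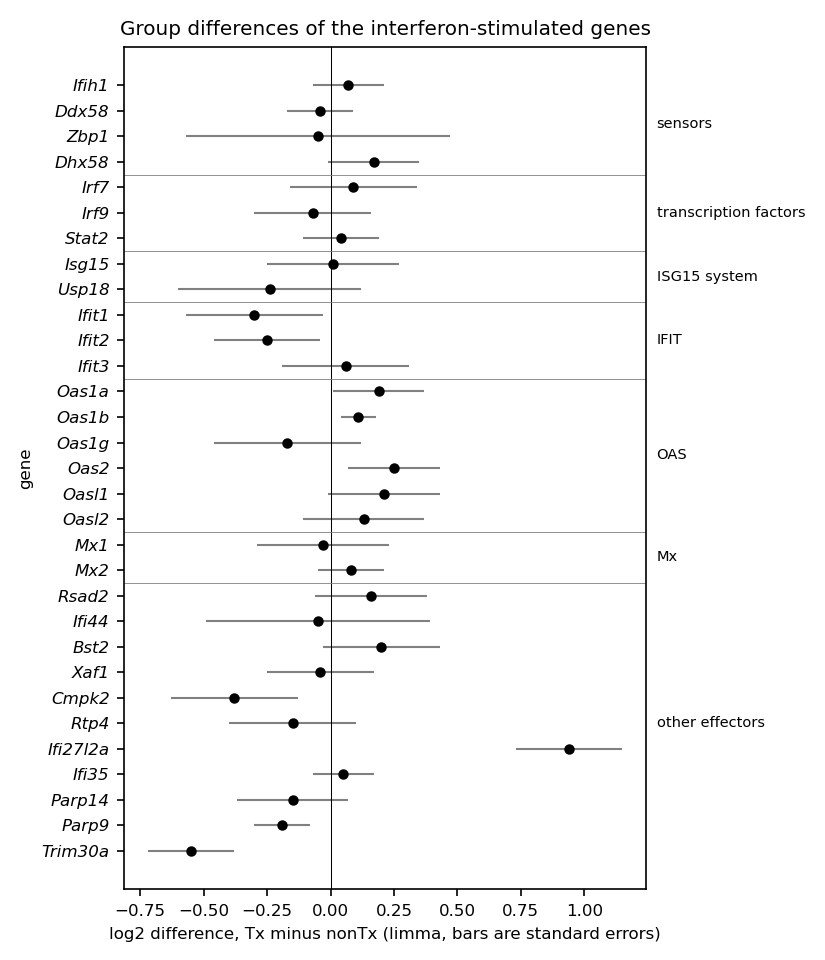
Log2 difference between the Tx and nonTx livers for the 31 measured interferon-stimulated genes, grouped by role; points are estimates from the fit over all probes and bars are standard errors (n = 4 arrays per group). The points lie on both sides of 0, from -0.55 for Trim30a to 0.94 for Ifi27l2a.

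What varied was the individual liver sample. Most of these genes were high on the same arrays and low on the same arrays, in both groups. Taken as the median log2 deviation of the 31 genes from their own means over the 8 arrays, Tx replicates 1 to 4 stood at -0.26, 0.36, 0.02 and -0.17, and nonTx replicates 1 to 4 at -0.31, -0.18, 0.18 and 0.29. Tx replicate 2 and nonTx replicates 3 and 4 were thus high, Tx replicates 1 and 4 and nonTx replicates 1 and 2 low, and the ranges of the groups overlapped almost fully. The median over all tested genes stayed between -0.04 and 0.07 on the same arrays.

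Counted gene by gene, 29 of the 31 genes lay above their own mean on Tx replicate 2 (53.7% of all tested genes did) and 27 lay below it on Tx replicate 1. Among nonTx arrays, 28 lay above their mean on replicate 4 (47.1% of all genes) and 29 below it on replicate 1. Tx replicate 2 was the highest Tx array for 25 of the 31 genes, against 22% of all tested genes, and Tx replicate 1 the lowest for 22 of them, against 37.7%. The highest nonTx array was replicate 4 for 19 genes and replicate 3 for 11 genes, against 28.5% and 23.7% of all genes, and replicate 1 was lowest for 22, against 26.8%.

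**Figure D2:**
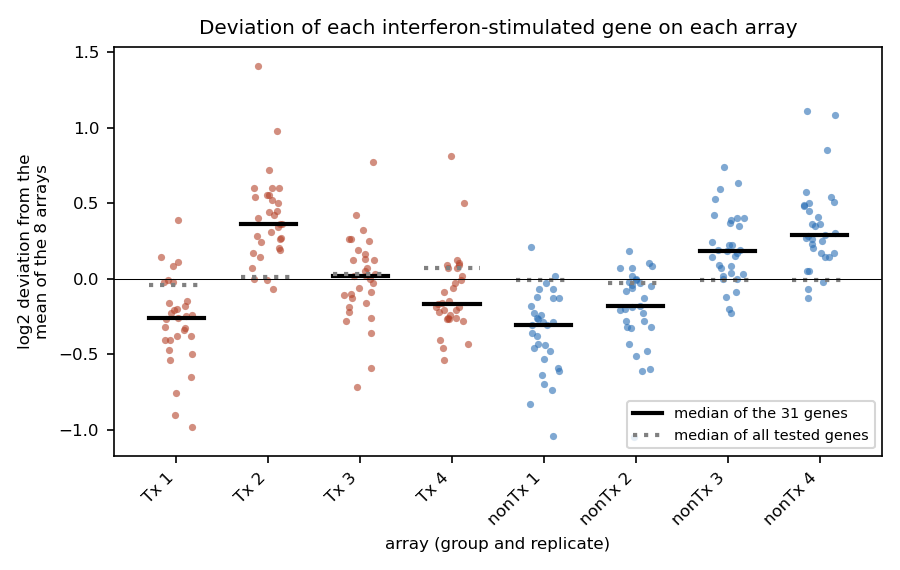
Log2 deviation of each of the 31 genes (points) from its own mean over the 8 arrays, by array; solid bars are the medians of the 31 genes and dotted bars the medians of all tested genes. The medians of the 31 genes run from -0.26 to 0.36 among Tx arrays and from -0.31 to 0.29 among nonTx arrays.

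The highest nonTx array was replicate 3 or replicate 4 for all but Oas1b. With Tx replicate 2 highest among Tx arrays, 10 genes peaked on nonTx replicate 3: Ifit1, Ifit2, Ifit3, Mx1, Mx2, Irf9, Usp18, Ddx58, Stat2 and Rtp4. Another 15 peaked on nonTx replicate 4: Isg15, Oas1a, Oasl2, Irf7, Ifi44, Ifih1, Bst2, Xaf1, Cmpk2, Zbp1, Dhx58, Ifi35, Parp14, Parp9 and Trim30a. Of all tested genes, 3.22% had the first of these combinations and 8.69% the second. The 6 other genes were Rsad2, Oasl1, Oas1b, Oas1g, Oas2 and Ifi27l2a, which had their Tx peak elsewhere. Several of these peaks were near ties between nonTx replicates 3 and 4, as for Stat2 (relative signals 13.6 and 13.5), Ddx58 (9.87 and 9.53) and Isg15 (28.2 and 29.2), and no test was made of which array was higher.

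**Figure D3:**
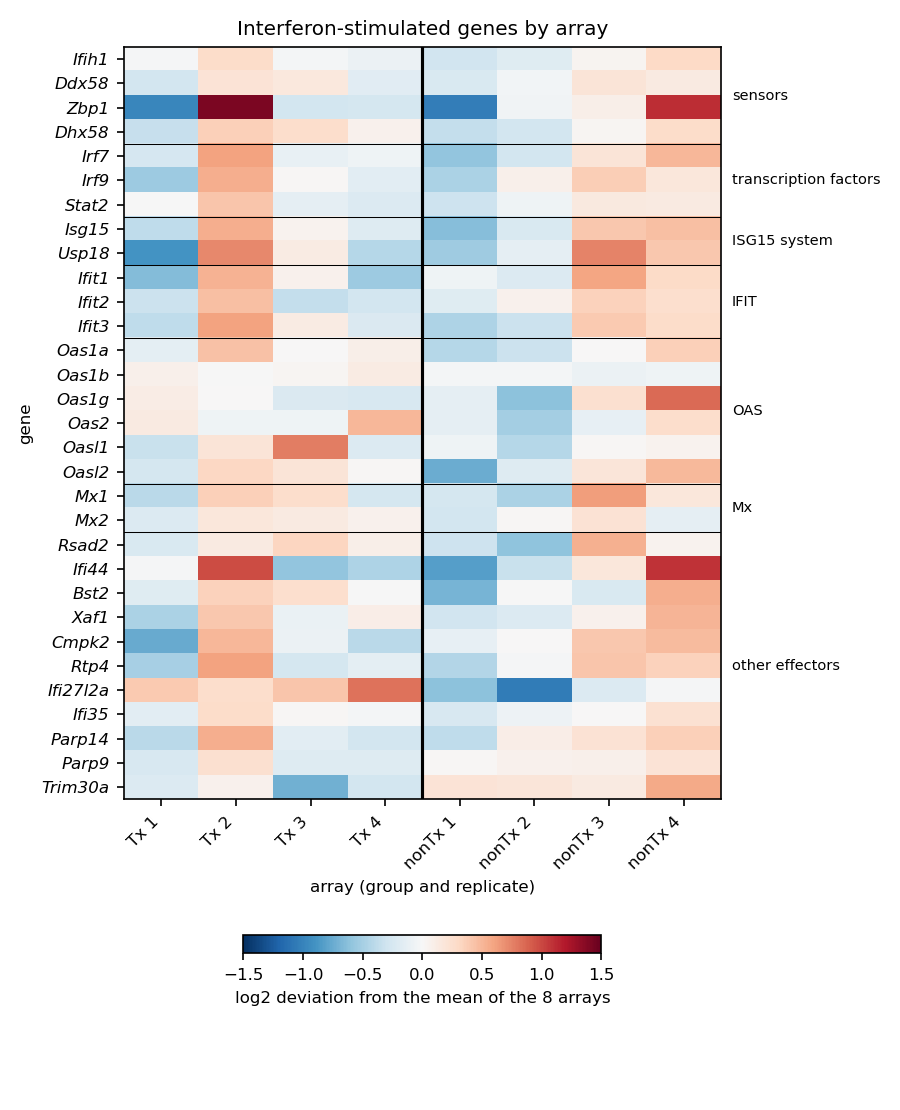
Log2 deviation from the mean of the 8 arrays (colour) for each measured gene (rows, by role) on each array (columns, Tx on the left, nonTx on the right of the black line). The columns of Tx replicate 2 and nonTx replicates 3 and 4 are mostly red and those of Tx replicate 1 and nonTx replicate 1 mostly blue, whereas Ifi27l2a is red on all 4 Tx arrays.

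The spread between replicates was larger than that of most genes. The within-group standard deviation, pooled over both groups, had a median of 0.38 on the log2 scale over the 31 genes, against 0.19 over all tested genes. It lay above the median of all tested genes for 28 of the 31, and Zbp1, Ifi44 and Usp18 had the largest values. The spread was of like size in both groups, with a median standard deviation of 0.33 in Tx and 0.36 in nonTx livers, and it was larger in Tx for 17 of the 31 genes. Among all tested genes these medians were 0.21 in Tx and 0.15 in nonTx livers.

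**Figure D4:**
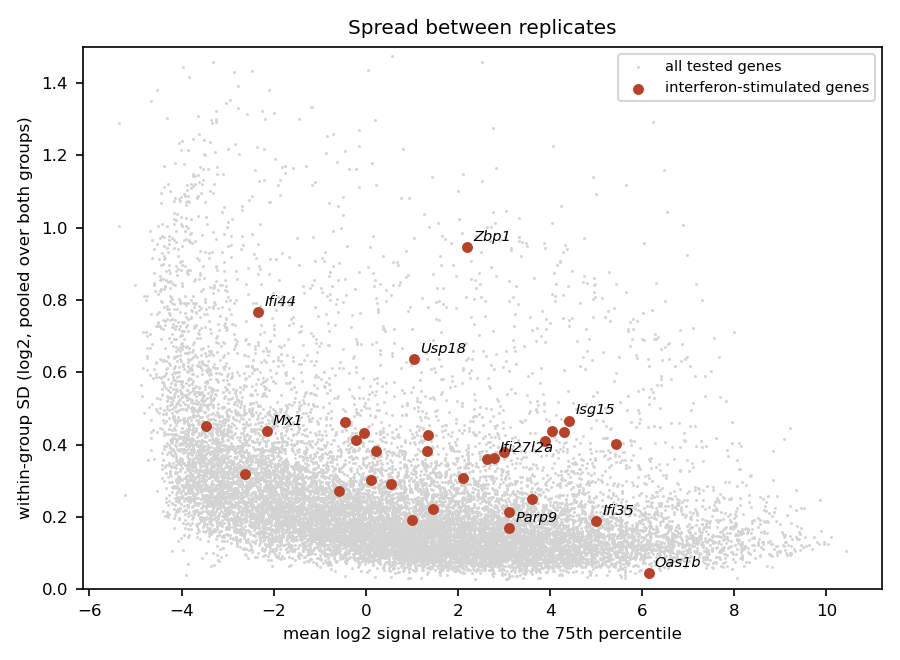
Within-group standard deviation (log2, pooled over both groups) against mean log2 signal relative to the 75th percentile for all tested genes (grey) and the interferon-stimulated genes (red). Zbp1 at 0.95, Ifi44 at 0.77 and Usp18 at 0.64 stand highest and Oas1b at 0.04 lowest; 18 genes with a value over the upper end of the axis are not drawn.

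Among the sensors of foreign nucleic acid, Zbp1, which binds Z-form DNA and RNA and can start cell death, had the widest range of all 31 genes. Its relative signal was 2.33, 12.1, 3.77 and 3.81 in Tx replicates 1 to 4 and 2.23, 4.43, 4.86 and 9.84 in nonTx replicates 1 to 4. The highest array exceeded the lowest 5.22-fold within Tx and 4.42-fold within nonTx, while the group difference was -0.05 ± 0.52 (log2, standard error here and below unless named otherwise). A dimmer Zbp1 probe differed by -0.37 ± 0.50 with an adjusted p of 0.752 by limma. The cytosolic RNA sensors of the RIG-I family were far steadier. Ifih1 (MDA5) had relative signals of 2.70, 3.32, 2.67 and 2.56 in Tx livers and 2.23, 2.40, 2.81 and 3.37 in nonTx livers, with a difference of 0.07 ± 0.14. Ddx58 (RIG-I) differed by -0.04 ± 0.13 on the brightest of its 4 tested probes and by -0.24 to -0.12 on the others, and Dhx58 (LGP2), a regulator of the other two, by 0.17 ± 0.18. The groups overlapped for all 4 sensors.

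The transcription factors of the pathway followed the same arrays. Irf7, which amplifies interferon alpha production, had relative signals of 16.6, 30.2, 18.4 and 19.0 in Tx livers and 13.2, 16.4, 22.6 and 28.0 in nonTx livers. Irf9, the DNA-binding part of the complex named above, had 10.2, 21.6, 15.0 and 13.2 in Tx livers and 10.6, 15.6, 19.1 and 16.6 in nonTx livers. Each was highest on Tx replicate 2 and the groups overlapped, with differences of 0.09 ± 0.25 for Irf7 and -0.07 ± 0.23 for Irf9. Second probes differed by 0.08 ± 0.26 for Irf7 and -0.15 ± 0.21 for Irf9. Stat2, which lies with IRF9 in that complex, varied less on its brightest probe, with 12.2, 16.4, 11.2 and 10.6 in Tx livers against 9.89, 11.7, 13.6 and 13.5 in nonTx livers and a difference of 0.04 ± 0.15. Its second probe, well above background on 2 Tx and 3 nonTx arrays, differed by -0.39 ± 0.31.

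The ISG15 pair showed one of the clearest sample patterns. Isg15, a ubiquitin-like protein that is attached to other proteins, had relative signals of 16.4, 31, 22.1 and 18.8 in Tx livers and 13.7, 18.2, 28.2 and 29.2 in nonTx livers. Usp18, which removes ISG15 and blocks the interferon receptor, had 1.11, 3.40, 2.25 and 1.53 in Tx livers and 1.43, 1.88, 3.44 and 2.75 in nonTx livers. Both were low on replicate 1 of each group and high on Tx replicate 2 and nonTx replicates 3 and 4. The group differences were 0.01 ± 0.26 for Isg15 and -0.24 ± 0.36 for Usp18 (adjusted p = 0.991 and 0.770 by limma).

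The IFIT genes, whose products bind viral RNA and block its translation, peaked on Tx replicate 2 and nonTx replicate 3. Ifit1 had relative signals of 0.469, 1.05, 0.770 and 0.506 in Tx livers and 0.699, 0.638, 1.1 and 0.898 in nonTx livers. Ifit2 had 0.130, 0.223, 0.126 and 0.135 in Tx livers and 0.144, 0.171, 0.207 and 0.194 in nonTx livers. Ifit3 had 1.98, 3.88, 2.78 and 2.20 in Tx livers and 1.87, 2.06, 3.35 and 3.11 in nonTx livers. For Ifit2, Tx replicates 1, 3 and 4 lay below every nonTx array and Tx replicate 2 above every one. The differences were -0.30 ± 0.27 for Ifit1, -0.25 ± 0.21 for Ifit2 and 0.06 ± 0.25 for Ifit3, none past the test.

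Active oligoadenylate synthetases make the small molecule that activates RNase L, an enzyme that degrades RNA. The genes of this family did not behave as a block. On its brightest probe Oas1b was the steadiest of the 31 genes, with relative signals of 74.4, 70.1, 72.1 and 76.8 in Tx livers and 68.9, 69.2, 66.5 and 67.3 in nonTx livers. All 4 Tx arrays thus lay above all nonTx arrays, which held for 2 of the 31 genes and 5.11% of all tested genes, by a difference of only 0.11 ± 0.07 (adjusted p = 0.484 by limma). That difference is within the range by which 10 of 10 spike-in RNAs, added in equal amounts for calibration, stood higher in Tx after the scaling, 0.06 to 0.37. With quantile normalization it was -0.07, and a second Oas1b probe differed by -0.03 ± 0.13. That second probe was far dimmer, at 1.19 to 1.70, and less steady. Its standard deviation was 0.21 in Tx and 0.18 in nonTx livers, against 0.06 and 0.03 on the brightest probe. Many laboratory strains carry a truncated Oas1b; the labels do not give the allele of NFS/sld.

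Oas1a, another member of the Oas1 cluster, had relative signals of 3.90, 5.88, 4.33 and 4.60 in Tx livers and 3.22, 3.46, 4.34 and 5.56 in nonTx livers, a difference of 0.19 ± 0.18. Oas1g was dim, at 0.0977, 0.0908, 0.0779 and 0.0764 in Tx livers and 0.0825, 0.0594, 0.107 and 0.163 in nonTx livers. Its standard deviation was 0.17 in Tx and 0.61 in nonTx livers. The Oas1 genes are close copies of each other, and cross-hybridisation between them was not tested. Oas2 had 1.61, 1.39, 1.4 and 2.07 in Tx livers and 1.34, 1.03, 1.35 and 1.75 in nonTx livers (difference 0.25 ± 0.18). Replicate 4 was the highest array of each group for Oas2, unlike most of the other genes. Oasl1, an OAS-like protein that restrains Irf7 translation in mouse, was highest on Tx replicate 3, with 2, 2.87, 4.27 and 2.18 in Tx livers against 2.39, 1.87, 2.55 and 2.61 in nonTx livers. Its difference was 0.21 ± 0.22, and that of Oasl2, a second OAS-like gene, 0.13 ± 0.24. Of the 6 measured genes of this family 5 were higher in Tx livers, with a median of 0.16 and 0 past the test. Among all tested genes 43.7% were lower in Tx livers. The median of 0.16 and the largest rise, 0.25, lie within the spike-in range of 0.06 to 0.37.

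The Mx genes encode dynamin-like GTPases that trap viral components. Mx1 had relative signals of 0.169, 0.288, 0.268 and 0.188 in Tx livers and 0.187, 0.161, 0.347 and 0.252 in nonTx livers, a difference of -0.03 ± 0.26. Mx2 had 1.75, 2.27, 2.21 and 2.11 in Tx livers and 1.68, 2.05, 2.36 and 1.84 in nonTx livers, a difference of 0.08 ± 0.13. Both groups overlapped for both genes. Many inbred strains carry a disrupted Mx1, and the labels do not give the allele here.

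Ifi27l2a, a small interferon-induced protein of the ISG12 family, had the largest difference between the groups among the 31 genes. Its deposited signal was 2978, 2059, 2112 and 2716 in Tx replicates 1 to 4 and 1364, 920.4, 1731 and 1853 in nonTx replicates 1 to 4. Relative to the 75th percentile this was 9.03, 8.25, 9.19 and 12.1 in Tx livers against 4.52, 3.34, 5.99 and 6.77 in nonTx livers. Every Tx array lay above every nonTx array, on both scales. The fitted difference was 0.94 ± 0.21, a 1.92-fold higher level in Tx, with an unadjusted p of 0.00122 and an adjusted p of 0.247 by limma, so it did not pass the test. Tx replicate 2, the highest Tx array for 25 of the 31 genes, was the lowest for Ifi27l2a, as it was for Oas1b and Oas2. The difference exceeded the spike-in range given above, stayed between 0.75 and 1.09 over all alternatives, and had adjusted p-values from 0.112 to 0.499. Its second probe did not rise well above background on any array.

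Trim30a, a regulator of Toll-like receptor signalling, lay at the other end. Its brightest probe had relative signals of 0.581, 0.701, 0.405 and 0.554 in Tx livers and 0.769, 0.754, 0.733 and 0.992 in nonTx livers. All 4 Tx arrays lay below all nonTx arrays, which held for 1 of the 31 genes and 2.95% of all tested genes. The difference was -0.55 ± 0.17 with an adjusted p of 0.305 by limma. The other probes assigned to Trim30a differed by -0.11 ± 0.17 and -0.07 ± 0.19, so the lower level was seen on 1 of 3 tested probes. Trim30a has close copies beside it in the mouse genome, and which copies each probe detects was not tested.

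**Figure D5:**
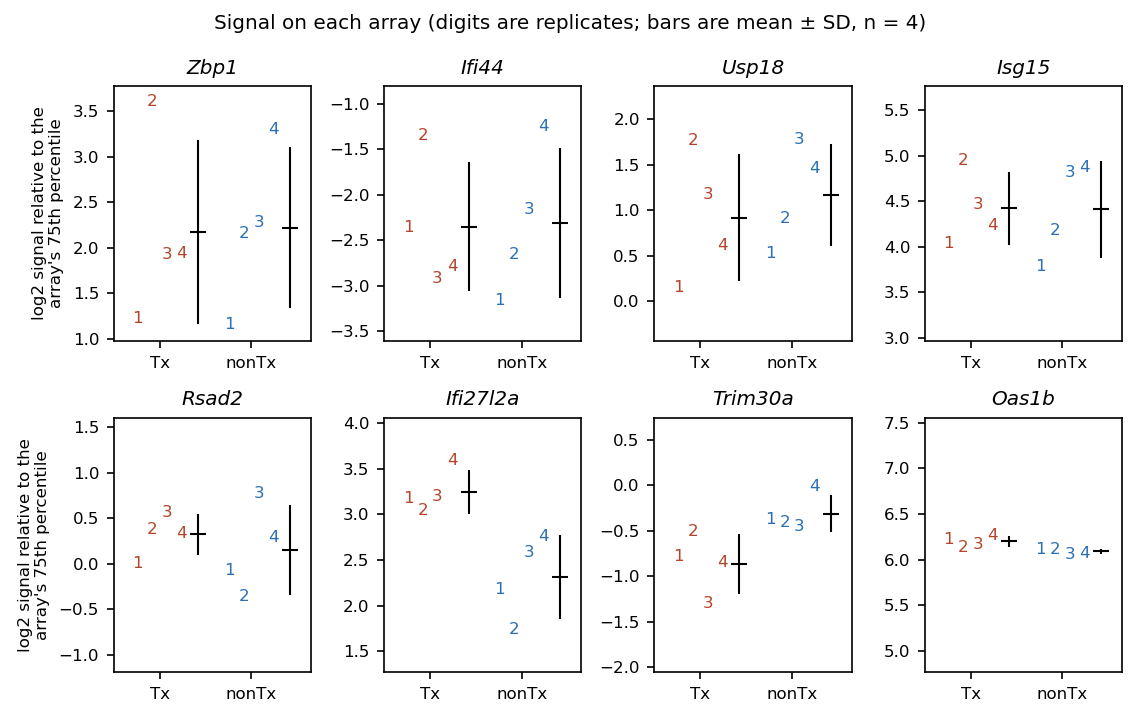
Log2 signal relative to the 75th percentile of the array for 8 genes, with digits for the replicates of Tx (left in each panel) and nonTx (right) and bars for the mean and standard deviation of each group (n = 4); every panel spans the same log2 range. Zbp1, Ifi44, Usp18 and Isg15 spread widely in both groups, Ifi27l2a and Trim30a separate the groups, and Oas1b varies little.

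Of the other effectors, Ifi44, a cytoplasmic interferon-induced protein, had the second widest spread. Its relative signal was 0.195, 0.393, 0.132 and 0.144 in Tx livers and 0.112, 0.158, 0.224 and 0.421 in nonTx livers, with the highest array 2.97-fold above the lowest in Tx and 3.77-fold in nonTx. Tx replicate 2 and nonTx replicate 4 stood out on the high side, and the groups overlapped (difference -0.05 ± 0.44). Cmpk2, a mitochondrial nucleotide kinase, had 0.576, 1.38, 0.921 and 0.734 in Tx livers and 0.903, 0.978, 1.29 and 1.36 in nonTx livers. Its difference of -0.38 ± 0.25 did not pass the test. Its neighbour on the chromosome, the antiviral enzyme viperin (Rsad2), differed by 0.16 ± 0.22, with 1, 1.29, 1.47 and 1.26 in Tx livers and 0.949, 0.778, 1.70 and 1.22 in nonTx livers. Bst2 (tetherin), which holds budding virions at the cell surface, had 38.0, 54.5, 51.3 and 42.7 in Tx livers and 26.4, 42.8, 36.7 and 62.4 in nonTx livers, a difference of 0.20 ± 0.23.

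The poly(ADP-ribose) polymerase family members Parp9 and Parp14 also peaked on Tx replicate 2. Parp9 had relative signals of 7.36, 10.3, 7.62 and 7.64 in Tx livers and 8.81, 9.1, 9.21 and 9.97 in nonTx livers. Tx replicates 1, 3 and 4 lay below every nonTx array and Tx replicate 2 above every one, giving a difference of -0.19 ± 0.11, while a dimmer Parp9 probe differed by 0.28 ± 0.17. Parp14 differed by -0.15 ± 0.22 on its brightest probe and -0.43 ± 0.27 on its other one. Rtp4, a chaperone of membrane receptors, ranged 2.15-fold within Tx and 1.81-fold within nonTx livers, and Xaf1, a promoter of apoptosis, 1.82-fold and 1.74-fold. Their differences were -0.15 ± 0.25 and -0.04 ± 0.21. Ifi35, an interferon-induced leucine zipper protein, was steadier, at 1.35-fold within Tx and 1.39-fold within nonTx livers, with a difference of 0.05 ± 0.12.

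Genes that act before these targets were compared for the same samples. Of 17 listed interferon genes with probes on the array only 8 were bright enough to test, and Ifnb1, the interferon beta gene, was not. None of the 8 passed the test. Ifng, the gene of interferon gamma, was well above background on 0 Tx and 4 nonTx arrays, and Ifna1, an interferon alpha gene, on 2 Tx and 3 nonTx arrays, so both were tested through their nonTx signal and no direction is drawn from the list. Of 11 measured genes of the receptor and kinase list none passed the test, and Ifnlr1, a chain of the interferon lambda receptor, was tested through its nonTx signal (1 Tx and 4 nonTx arrays above background). The receptor chain Ifnar2 differed by 0.26 ± 0.10 on its brightest probe and -0.23 ± 0.14 on its other one.

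Irf1, a transcription factor that is itself inducible by interferon, had relative signals of 13, 46.3, 22.5 and 22.7 in Tx livers and 19.1, 38.8, 30.2 and 23.7 in nonTx livers, a difference of -0.20 ± 0.35.

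The 16 genes of sensing and interferon induction were split evenly, with 8 higher and 8 lower and a median of 0.01, and the 12 genes that restrain the pathway likewise with 6 and 6 and a median of -0.02. None of either list passed the test. Trim25, a ubiquitin ligase that activates RIG-I, had the largest value of these, 1.55 ± 0.42 on its brightest probe (adjusted p = 0.283 by limma). That probe read 149, 35.4, 164 and 96.8 in Tx livers and 34.5, 35.7, 24.0 and 38.4 in nonTx livers. The 2 other Trim25 probes differed by 0.00 ± 0.11 and 0.12 ± 0.17, so the probes disagree.

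A second list of 36 interferon-stimulated genes, 31 of them measured, stood as the first did, with 16 higher, 15 lower, a median of 0 and 0 past the test. Its median deviation was -0.26, 0.32, -0.05 and -0.04 on Tx replicates 1 to 4 and -0.19, -0.08, 0.07 and 0.25 on nonTx replicates 1 to 4. Tx replicate 2 and nonTx replicate 4 were again highest and replicate 1 of each group lowest. The member with the smallest p, the membrane protein gene Ms4a4c, had 261, 84.4, 293 and 229 in Tx livers and 85.2, 84.5, 56.1 and 106 in nonTx livers (1.28 ± 0.36, adjusted p = 0.290 by limma). Sp100, a nuclear body protein, differed by 0.26 ± 0.11, within the spike-in range of 0.06 to 0.37. After the scaling all its Tx arrays lay above all nonTx arrays, as held for 5.11% of all tested genes. Its deposited signals overlapped, at 97.64 to 131.2 in Tx and 85.02 to 116.5 in nonTx livers.

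Outside the list, the 10 tested genes nearest to the median deviation of the 31 were H2-T10, Shisa5, Slc38a1, Tapbpl, H2-T22, Pdlim4, Aldh3b1, Axl, Rab23 and Parp10. Nearness was the root mean square difference over the 8 arrays, ranked over 16464 genes, and ran from 0.0838 to 0.102 for these 10, against a median of 0.312 over all of them. The 31 genes themselves lay at a median of 0.193 from their own median. Shisa5 and Parp10 belong to the second list of interferon-stimulated genes. The differences between groups of all 10 lay between -0.11 and 0.05. Small differences follow from the ranking itself, since the median deviation of the 31 differs little between the groups.

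The median levels of some marker lists of other liver cells were high and low on the same arrays, and those of others were not. For Kupffer cells, with 6 of 6 markers measured, the median deviation was -0.25, 0.39, 0.07 and 0.04 on Tx replicates 1 to 4 and -0.29, -0.08, -0.05 and 0.21 on nonTx replicates 1 to 4. Their summed relative signal was 93.46 to 141.4 in Tx and 96.87 to 122.8 in nonTx livers. Here and below, such a sum is set mostly by the brightest markers of its list. For natural killer cells, with 4 of 6 measured, the median deviation was -0.36, 0.48, -0.25 and 0.16 in Tx and -0.25, 0.11, -0.05 and 0.32 in nonTx livers, and the sum, which is mostly Gzma, 3.701 to 7.365 in Tx and 2.909 to 8.465 in nonTx livers. Of these 4, Klrb1c was well above background on 1 Tx and 4 nonTx arrays and Ncr1 on 1 Tx and 3 nonTx arrays, so the medians in Tx rest in part on values not above background. Eomes and Klra8 were too dim to test. Neutrophil and monocyte markers (7 of 7 measured) were highest on Tx replicate 2 as well, at 0.56, and lowest on nonTx replicate 3, at -0.57, with sums of 183.2 to 250 in Tx and 200.4 to 256 in nonTx livers. The largest part of these sums was Csf3r, which was lower in Tx livers (-0.51 ± 0.17). Of the 7 markers, 5 were higher and 2 lower in Tx livers, with a median difference of 0.47 and 0 past the test.

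Plasmacytoid dendritic cells are strong producers of type I interferon, and the median of their markers took another order. With 6 of 6 measured, it stood at -0.12, -0.16, 0.29 and 0.21 in Tx and -0.04, 0.04, -0.22 and -0.14 in nonTx livers, with sums of 61.99 to 118.2 in Tx and 74.43 to 92.64 in nonTx livers. The markers did not share one order, and 4 were higher and 2 lower in Tx livers. Siglech, the brightest, deviated by 0.77, -0.08, -0.72 and -0.50 on Tx replicates 1 to 4. Klk1 stood at 2.67 on Tx replicate 4. T cell markers, with 8 of 9 measured, were at -0.30, -0.26, -0.31 and -0.15 in Tx and 0, 0.40, 0.27 and 0.53 in nonTx livers. Their sums, which are mostly Cd4, were 20.26 to 33.6 in Tx and 21.01 to 23.1 in nonTx livers. Of the 8 markers, 6 were lower in Tx livers, and 0 passed the test. Among the lower ones, Cd3d differed by -1.17 ± 0.14, Cd3g by -0.84 ± 0.17, Cd5 by -0.62 ± 0.20 and Cd28 by -0.61 ± 0.20. The 2 higher ones were Cd3e, at 0.13 ± 0.12, and Cd4, at 0.32 ± 0.18. The groups overlapped for Cd3e, Lck, Cd8a and Cd4, and Cd8a was well above background on 0 Tx and 3 nonTx arrays, so it was tested through its nonTx signal.

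Hepatocyte markers (7 of 7 measured) had median deviations of -0.19, -0.09, 0.05 and 0.13 in Tx and 0, 0.01, -0.06 and 0.09 in nonTx livers, with sums of 3498 to 3982 in Tx and 3735 to 4038 in nonTx livers. Sinusoidal endothelial markers (5 of 5) stood at 0.04, -0.12, -0.20 and 0.01 in Tx and 0.11, -0.07, 0.10 and 0.15 in nonTx livers, with sums of 108.8 to 129.7 in Tx and 109.3 to 113.9 in nonTx livers. In neither list was Tx replicate 2 the highest Tx array. B cell markers (5 of 6, without Cd79a) stood at 0.14, -0.02, -0.04 and 0.32 in Tx and 0.22, -0.26, 0.09 and -0.12 in nonTx livers, with sums of 2.995 to 3.996 in Tx and 3.177 to 4.058 in nonTx livers. Plasma cell markers (5 of 6, without Tnfrsf17) stood at 0.34, 0.06, 0.14 and 0.16 in Tx and -0.12, -0.33, 0.02 and -0.13 in nonTx livers, with sums of 139.1 to 147 in Tx and 138.2 to 147.2 in nonTx livers. Those sums are mostly Xbp1, the brightest of the 5, which differed by -0.09 ± 0.07. The 4 others were higher in Tx livers, with Jchain at 1.36 ± 0.22 and Mzb1 at 0.53 ± 0.20, and 0 of the 5 passed the test. Neither the B cell nor the plasma cell list was highest on Tx replicate 2 among the Tx arrays. Conventional dendritic cell markers (3 of 5, without Xcr1 and Cd209a, and with Flt3 above background on 2 Tx and 3 nonTx arrays) stood at 0.10, -0.08, -0.25 and -0.36 in Tx and 0.13, 0.03, 0.30 and -0.21 in nonTx livers, with sums of 0.3538 to 0.4801 in Tx and 0.4574 to 0.5428 in nonTx livers. The part of any of these cells in the levels of the interferon-stimulated genes was not tested.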

How the data were processed

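The scanner output holds spot intensities that, per the file headers, Agilent's Feature Extraction 10.7.1.1 had corrected for background and spatial trend; version 9.1 is named in the submitters' processing notes. The authors' table repeats these intensities with one value per probe (99.79% of probes within 0.01 on the log2 scale). It adds the authors' log2 values, which scaling to the 75th percentile and centring each probe on its median rebuilt within 0.001611. Here, control spots were dropped, outlier spots (54 to 120 per array) were set to missing, and the 75th percentile of each array was subtracted from its log2 intensities. Probes entered the test with at least 2 values per group and a signal well above background on 3 or more of the 4 arrays in either group. The brightest tested probe stood for its gene. The comparison used limma 3.58.1 (R 4.3.3, with the data.table package in version 1.17.8). Its lmFit and eBayes, with a trend in the variance, left 6 residual degrees of freedom. P-values were adjusted over 30955 probes by Benjamini-Hochberg, with a threshold of 0.05. On simulated data of this size with 200 changed probes, 65% of log2 changes of 1 and 91% of changes of 2 were recovered. The changed probes were drawn from all tested probes, with noise independent between probes. These rates are therefore not rates for the 31 genes, whose median standard error was larger (0.22 against 0.13). Symbols were updated by Entrez ID (43901 of 46119 named probes matched).

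The 4 arrays per group limit the precision. The genes named are all listed members, the up to 3 genes of each pathway list with the smallest p, and the genes nearest in pattern. Irf1, Ifna1, Ifnb1 and the cell markers were named after their values were seen. One gene of the pathway lists is not reported here. Members and lists were chosen with earlier results of these data known. Alternatives were another background correction (normexp, on median spot signals), scalings, filters, variance models, probe rules and each array left out. The headers name genome build mm9, so no gene coordinates are given; promoter windows carry the RefSeq build.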

Additional observations from a re-analysis of the deposited data

Results flagged for a closer look

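In a group of 4 arrays, 3 values of single genes had a gap between the farthest array and its neighbour above Dixon's 95% critical value, as a share of the range. Ifit2 stood high on Tx replicate 2 (share 0.880), as did Parp9 (0.888), and Trim30a stood high on nonTx replicate 4 (0.842). Chance gives about 1 such value in 20 groups, and 5.73% of all tested genes had one in Tx and 5.27% in nonTx livers, so 2 of 31 genes in Tx and 1 of 31 in nonTx is near that level.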

How the results depend on the processing

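Under none of 21 alternatives did 1 of the 31 genes pass the test. Of 650 values of single genes under these alternatives 645 moved by less than the replicate spread, and 10 of 31 genes kept one direction throughout: Cmpk2, Dhx58, Ifi27l2a, Ifit1, Ifit2, Oas1a, Oas2, Parp14, Rtp4 and Trim30a. The 5 that moved were Oas1b (-0.07 with quantile normalization, 0.21 with median scaling, 0.04 with the mean of its probes), Parp9 (0.05) and Trim30a (-0.24), both with the mean of probes. Scaling to the median shifted all probes to a median of 0.12 and these genes to 0.11, with 9 of 31 lower in Tx. Leaving out single arrays gave 9 to 23 genes lower. Over all probes, where the count was 0, it was 1 with the authors' log2 values, 2 with normexp background, 1 with no variance trend, 5 with robust variance and 7 with array weights, 6 with median scaling, and 0 to 188 with single arrays left out, the 188 without Tx replicate 2; the cause was not tested. With the replicate number as a block 1 probe passed, and 0 of the 31 genes. The deviations of same-numbered arrays had correlations of 0.0448, 0.0808, 0.0987 and -0.0109, so the numbers, which match the slide column, were not taken as pairs. A slide or scan block could not be fitted, since there was 1 of each. The 4 arrays per group and the dim signal of genes such as Oas1g and Oas3 limit what these data can show.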
